A study of Mus musculus with 6 samples.

Results

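The collagen genes were taken as every gene of the deposited table whose mouse symbol has the form Col, a number, the letter a and a number, a rule that uses names and no measured value. It found 44 genes among the 46983 of the table, the same 44 that GENCODE mouse release M21 lists. By the structure their proteins form they were grouped into 11 fibrillar genes, 8 basement membrane genes (types IV, XV and XVIII), 6 type VI genes and 19 others. The cells were macrophages derived from bone marrow, and their total RNA was sequenced in 3 libraries per genotype. The genotypes, both on the C57BL/6 strain, were wild type (WT) and AEG-1 knockout (AEG-1 KO). Mtdh is the mouse gene that encodes AEG-1. Femoral marrow of both genotypes was grown for 7 days with 20% L929 conditioned medium, a source of the macrophage growth factor CSF1, and 10% serum, and neither genotype was treated. The labels give no age or sex of the mice, no design of the deleted allele and no statement of whether replicates were separate animals or cultures, so the spread behind each p-value is that of these 6 libraries and may be technical.

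Collagens are secreted or membrane proteins in which 3 chains wind into a triple helix. Fibrillar collagens assemble into the cables of bone, skin and tendon, type IV collagen forms the sheet of basement membranes, and type VI collagen forms beaded filaments at the cell surface. Fibroblasts, osteoblasts and chondrocytes are the main makers, whereas macrophages are better known for taking collagen up and degrading it, although some macrophages transcribe collagen genes.

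Total counts ran from 42548170 to 58947230 per library, and each library's Mtdh count followed its label, with 11560 to 14849 reads in WT and 15 to 22 in AEG-1 KO. All 10 macrophage markers were tested and their summed level was 18843 to 19327 CPM in WT and 19534 to 20088 in AEG-1 KO (CPM, reads scaled to a library of 1e6 by TMM). Among them Csf1r, Mertk and Cd14 rose and Adgre1 fell. Collagen reads were scarce beside these. Over the 44 genes together the WT libraries held 2073, 2400 and 1863 reads and the AEG-1 KO libraries 2241, 2411 and 2724, in the order of their replicate numbers, as throughout. Scaled to depth that was 41.0 to 46.4 CPM in WT and 49.7 to 60.8 in AEG-1 KO.

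AEG-1 KO macrophages held more reads of type VI collagen and of several fibrillar collagens. The summed level of the basement membrane genes was about the same. Within that class Col18a1 had a negative log2 ratio and Col4a1, Col4a2 and Col15a1 positive ones, none of which passed the test. Col6a1, Col6a2 and Col6a3, the chains of the main type VI trimer, and the fibrillar genes Col1a2, Col3a1 and Col5a2 rose 1.92- to 2.48-fold. Col12a1, which encodes a collagen that lies along fibrils, rose 1.84-fold. No collagen gene passed the test as lower. Of the 44 genes 25 had enough reads to be tested, of which 7 rose, none fell and 18 did not pass (adjusted p under 0.05 by edgeR's quasi-likelihood test, with the Benjamini-Hochberg method over 16115 genes). That is 28% of the tested members, where 6.35% of all tested genes were called, 3.31% as higher and 3.04% as lower. By another tool, DESeq2, 8 members were called higher and 1 lower. The median log2 ratio of AEG-1 KO to WT levels of the 25 was 0.62, against 0.01 over all tested genes. Col8a1 and Col14a1 passed the filter on low counts only through the AEG-1 KO libraries, and neither is among the 7. Both are among the 25 behind the median and lie above it, so the filter itself raised that median. Bulk RNA gives 1 value per library, so more cells that make a collagen and more RNA per cell cannot be told apart.

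**Figure D1:**
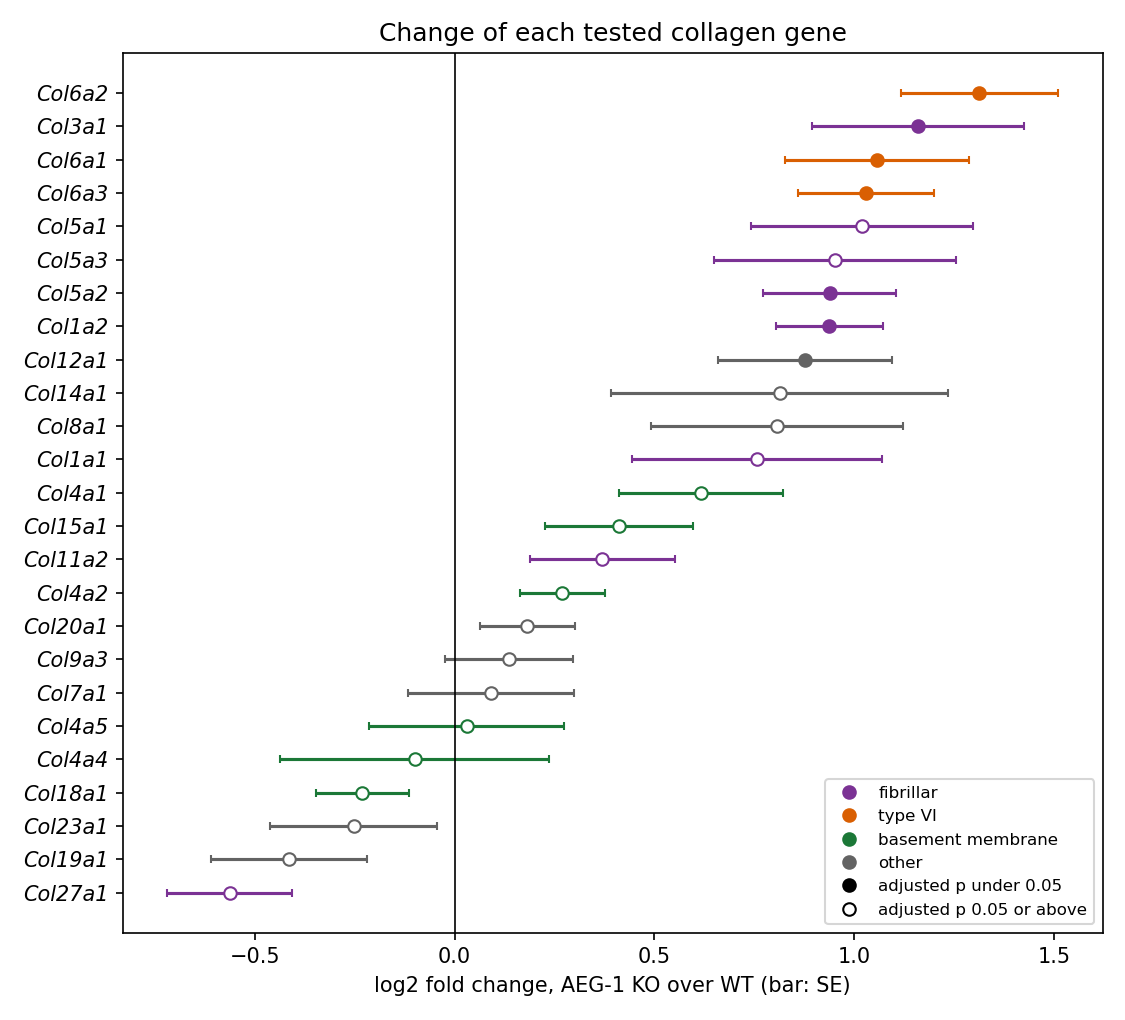
Log2 ratio of AEG-1 KO to WT for the 25 tested collagen genes on the horizontal axis, with its SE as a bar, coloured by class and filled where the edgeR adjusted p was under 0.05. The 3 type VI genes lie at 1.03 to 1.31 and the basement membrane genes at -0.23 to 0.62.

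The type VI genes were the class in which each tested member rose. Col6a2 (ENSMUSG00000020241, chromosome 10 of GRCm38, 76595762 to 76623630) was covered by 22, 24 and 24 reads in WT and 47, 55 and 56 in AEG-1 KO. Every AEG-1 KO library lay far above every WT library. Its level went from 0.486 ± 0.0726 to 1.19 ± 0.133 CPM (SD, n = 3), a log2 ratio of 1.31 ± 0.20 (SE, edgeR adjusted p = 0.00513). Col6a3 (ENSMUSG00000048126, chromosome 1, 90765923 to 90843971), the longest chain of the trimer, had 52, 52 and 53 reads in WT and 86, 96 and 109 in AEG-1 KO. It went from 1.09 ± 0.179 to 2.2 ± 0.266 CPM (SD, n = 3), a log2 ratio of 1.03 ± 0.17 (SE, edgeR adjusted p = 0.00811). Col6a1 (ENSMUSG00000001119, chromosome 10, 76708792 to 76726168) had 52, 39 and 47 reads in WT and 73, 102 and 86 in AEG-1 KO. The groups of all 3 genes did not overlap. The log2 ratio of Col6a1 was 1.06 ± 0.23 (SE, edgeR adjusted p = 0.0284), and its call was lost without AEG-1 KO replicate 2, AEG-1 KO replicate 3 or WT replicate 2 (edgeR adjusted p = 0.119, 0.0707 and 0.109).

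The remaining type VI genes, Col6a4, Col6a5 and Col6a6, encode alternatives to the third chain and had 0 to 4 reads in any library, too few to be tested. Col6a5 and Col6a6 also share a near-identical stretch, so their few reads cannot be assigned with certainty. Scaled to the length of the transcript with the longest coding sequence, Col6a1 stood above the other chains in each library. Its level was 0.163 to 0.284 CPM per kb in WT and 0.395 to 0.584 in AEG-1 KO. On the same scale Col6a2 was at 0.353 to 0.544 and Col6a3 at 0.382 to 0.541 of the Col6a1 level over the 6 libraries. The ratio of Col6a3 to Col6a1 levels was 0.468 ± 0.0682 in WT and 0.458 ± 0.0684 in AEG-1 KO (SD, n = 3), a difference smaller than the spread between replicates.

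Of the 7 members that rose 5 matched a RefSeq promoter window on GRCm38.p6, and Col5a2 and Col12a1 did not. The windows of Col6a2, Col6a3 and Col3a1 that overlapped no annotated exon are shown, since these genes rose in the same libraries and their start regions can be set side by side. Each line is the 250 bases before the start, 5′ to 3′ on the gene's strand, with matches to the searched motifs in capitals. The motifs, sought on both strands, were the TATA box TATAAA, the CCAAT box CCAAT, the GC box GGGCGG, the purine-rich box GGGAGG and the AP-1 motif TGANTCA, and no matches overlapped within the windows shown.
Col6a2 (chr10:76623631-76623880, minus strand): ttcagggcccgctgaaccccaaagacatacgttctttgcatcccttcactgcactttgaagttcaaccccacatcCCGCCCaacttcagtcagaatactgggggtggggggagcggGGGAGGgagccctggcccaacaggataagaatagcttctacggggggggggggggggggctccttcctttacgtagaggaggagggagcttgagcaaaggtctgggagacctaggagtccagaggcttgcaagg
Col6a3 (chr1:90843972-90844221, minus strand): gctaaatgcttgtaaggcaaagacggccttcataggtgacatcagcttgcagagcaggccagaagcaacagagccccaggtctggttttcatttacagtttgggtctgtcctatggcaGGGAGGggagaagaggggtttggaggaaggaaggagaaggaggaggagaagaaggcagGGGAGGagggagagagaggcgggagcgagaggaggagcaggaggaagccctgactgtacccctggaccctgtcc
Col3a1 (chr1:45311288-45311537, plus strand): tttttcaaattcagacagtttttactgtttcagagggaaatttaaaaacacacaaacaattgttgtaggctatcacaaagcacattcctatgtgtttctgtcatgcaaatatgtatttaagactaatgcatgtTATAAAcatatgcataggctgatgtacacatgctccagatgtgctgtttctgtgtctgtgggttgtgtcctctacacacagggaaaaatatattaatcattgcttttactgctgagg
The shown window of Col6a2 held 1 GGGCGG and 1 GGGAGG match and that of Col6a3 held 2 GGGAGG matches, while that of Col3a1 held 1 TATAAA match. Their GC content was 59.2%, 57.2% and 35.2%. Another window of Col6a2, which overlapped an exon and is not shown, held 3 GGGCGG and 3 GGGAGG matches, some of them overlapping. The windows of Col1a2 and Col6a1 overlapped exons too and are not shown. Of the 32851 RefSeq windows of the same length, 38.0% held GGGAGG, 33.8% the CCAAT box, 32.7% the motif GGGCGG, 12.4% the motif TATAAA and 6.75% the AP-1 motif, so that each of these matches is common. A match describes letters and not a site in use.

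Among the fibrillar genes 8 of 11 were tested, 3 rose, none fell and 5 did not pass. Col1a2 (ENSMUSG00000029661, chromosome 6, 4504814 to 4541544), a chain of type I collagen, had 51, 73 and 57 reads in WT and 104, 95 and 115 in AEG-1 KO. The genotypes were well apart in each library, at 1.24 ± 0.0889 and 2.37 ± 0.176 CPM (SD, n = 3). Its log2 ratio was 0.94 ± 0.13 (SE, edgeR adjusted p = 0.00412). Col5a2 (ENSMUSG00000026042, chromosome 1, 45374321 to 45503282), a chain of the type V collagen that helps to start fibrils, had 82, 110 and 125 reads in WT and 180, 190 and 182 in AEG-1 KO. It went from 2.2 ± 0.597 to 4.17 ± 0.253 CPM (SD, n = 3), a log2 ratio of 0.94 ± 0.17 (SE, edgeR adjusted p = 0.0108). The call was lost without replicate 2 of AEG-1 KO or of WT (edgeR adjusted p = 0.0597 and 0.0598).

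Col3a1 (ENSMUSG00000026043, chromosome 1, 45311538 to 45349706), the type III collagen of extensible tissues, had 47, 50 and 84 reads in WT and 133, 95 and 141 in AEG-1 KO. WT replicate 3 was the high WT library and AEG-1 KO replicate 2 the low AEG-1 KO library, and the groups still did not overlap. Its log2 ratio was 1.16 ± 0.27 (SE, edgeR adjusted p = 0.0348), at 1.28 ± 0.58 CPM in WT and 2.78 ± 0.482 in AEG-1 KO (SD, n = 3). The call was lost on leaving out any library but WT replicate 3 (edgeR adjusted p = 0.0571 to 0.133). Gm47302 shares 141 exonic bases with Col3a1 on the same strand, so that part of its count is uncertain.

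Of the fibrillar genes that did not pass, the other type V chains had values near those of the genes that rose. Col5a1 had 37, 25 and 35 reads in WT and 45, 61 and 73 in AEG-1 KO, without overlap (log2 ratio 1.02 ± 0.28 SE, edgeR adjusted p = 0.0639). It passed with DESeq2 (adjusted p = 0.0399), with the trend of log2 ratios with GC content and length removed, without a filter on low counts and when replicate 1 of AEG-1 KO was left out (edgeR adjusted p = 0.0276, 0.0441 and 0.049). Its exons share bases with 2810430I11Rik and Gm13372 on the other strand. Col5a3 had 12, 20 and 13 reads in WT and 17, 30 and 32 in AEG-1 KO (log2 ratio 0.95, edgeR adjusted p = 0.102). Not all of the 16 alternative settings gave it an adjusted p. Among those that did, it passed only when replicate 1 of AEG-1 KO was left out (edgeR adjusted p = 0.0367). Col1a1, the partner chain of Col1a2 in type I collagen, had 28, 44 and 39 reads in WT and 35, 51 and 84 in AEG-1 KO. Its groups overlapped through AEG-1 KO replicate 1, while AEG-1 KO replicates 2 and 3 lay above the WT libraries in CPM (log2 ratio 0.76 ± 0.31 SE, edgeR adjusted p = 0.2). Type I collagen usually holds more of the Col1a1 chain than of the Col1a2 chain. Here the level of Col1a2 per kb was 1.52 to 3.3 times that of Col1a1 with the length of the main transcript, and 0.723 to 1.57 times with the length of all annotated exons, so that their order depends on the length used.

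Col27a1 and Col11a2 are fibrillar collagens known from cartilage. Col27a1 went the other way, and Col11a2 went the same way with a smaller log2 ratio. Col27a1 (ENSMUSG00000045672) had 146, 161 and 139 reads in WT and 75, 88 and 111 in AEG-1 KO. The groups did not overlap and AEG-1 KO was the lower one (log2 ratio -0.56 ± 0.16 SE, edgeR adjusted p = 0.0671). It passed as lower with DESeq2 (adjusted p = 0.0471), with the length and GC trend removed (edgeR adjusted p = 0.0205, and 0.0279 with the replicate number as a block too), without a filter on low counts (edgeR adjusted p = 0.0483) and when replicate 3 of AEG-1 KO was left out (edgeR adjusted p = 0.048). Col11a2 (ENSMUSG00000024330) had the highest count of the family, with 416, 476 and 257 reads in WT and 359, 429 and 550 in AEG-1 KO. Its groups overlapped (log2 ratio 0.37 ± 0.18 SE, edgeR adjusted p = 0.277). The gene starts 1038 bases from Rxrb, an expressed gene on the same strand with a mean of 2612 reads, and whether reads from Rxrb entered its count was not tested. The cartilage genes Col2a1 and Col11a1 and the fibrillar gene Col24a1 had 0 to 6 reads per library.

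**Figure D2:**
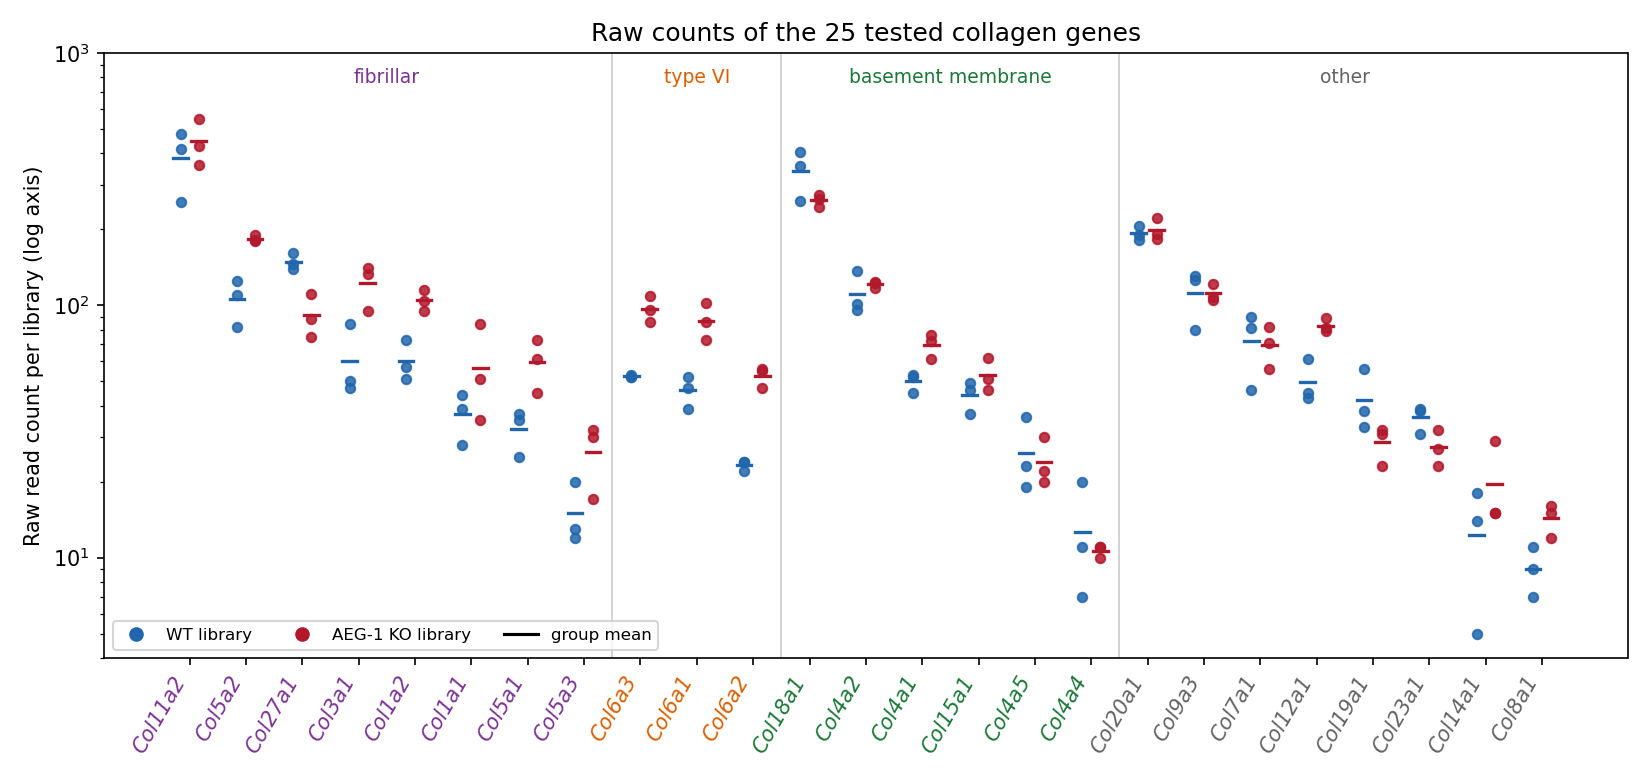
Raw read count per library (log axis) of the 25 tested collagen genes, with WT libraries in blue, AEG-1 KO libraries in red and the group mean as a dash, ordered by class and mean count. Most genes lie under 150 reads, and the 3 type VI genes show AEG-1 KO points above all WT points.

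Basement membrane collagen held 6 tested genes of 8, none of which passed the test; their median log2 ratio was 0.15. Col4a1 and Col4a2, the chains of the common type IV network, are transcribed from a shared start in opposite directions. Col4a1 had 52, 45 and 53 reads in WT and 61, 76 and 72 in AEG-1 KO, without overlap in CPM (log2 ratio 0.62 ± 0.20 SE, edgeR adjusted p = 0.117). Col4a2 had 101, 137 and 96 reads in WT and 123, 117 and 124 in AEG-1 KO. Scaled to depth these were 2.27 ± 0.062 and 2.75 ± 0.0188 CPM (SD, n = 3), a difference of 0.27 ± 0.11 (SE) on the log2 scale that did not overlap between groups but did not pass (edgeR adjusted p = 0.18). Col18a1, whose product releases the fragment endostatin, was the most abundant of the class. It had 356, 404 and 258 reads in WT and 245, 265 and 274 in AEG-1 KO, with overlap in CPM (log2 ratio -0.23 ± 0.12 SE, edgeR adjusted p = 0.288). With the length and GC trend removed Col18a1 passed as lower (log2 ratio -0.30, edgeR adjusted p = 0.0233). Col15a1, a close relative of Col18a1, had 37, 49 and 46 reads in WT and 62, 51 and 46 in AEG-1 KO.

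The type IV chains of the kidney had few reads. Col4a5 had 19, 36 and 23 reads in WT and 30, 22 and 20 in AEG-1 KO, Col4a4 had 7 to 20 reads and Col4a3 6 to 10 reads per library, and Col4a6 had 2 to 4. The tested genes Col4a5 and Col4a4 had log2 ratios of 0.03 ± 0.24 and -0.10 ± 0.34 (SE) and did not pass (edgeR adjusted p = 0.963 and 0.906).

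Of the 19 other collagen genes 8 were tested, of which 1 rose, none fell and 7 did not pass. Col12a1 (ENSMUSG00000032332, chromosome 9, 79598991 to 79718831), a fibril-associated collagen, had 45, 43 and 61 reads in WT and 79, 89 and 81 in AEG-1 KO. All 3 AEG-1 KO libraries lay above the WT libraries, at 1.88 ± 0.181 against 1.05 ± 0.34 CPM (SD, n = 3). The log2 ratio was 0.88 ± 0.22 (SE, edgeR adjusted p = 0.0471), and the call was lost on leaving out any library but WT replicate 3 (edgeR adjusted p = 0.0765 to 0.178).

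Other fibril-associated genes did not pass. Col20a1 had 181, 207 and 190 reads in WT and 183, 191 and 222 in AEG-1 KO (log2 ratio 0.18 ± 0.12 SE, edgeR adjusted p = 0.427). Col9a3, a chain of cartilage type IX collagen, had 126, 131 and 80 reads in WT and 105, 108 and 122 in AEG-1 KO (log2 ratio 0.14 ± 0.16 SE, edgeR adjusted p = 0.688), and 234 of its exonic bases overlap Tcfl5 on the other strand. Its partner chains Col9a1 and Col9a2 had 0 or 1 read in each library. Col19a1 had 38, 56 and 33 reads in WT and 32, 23 and 31 in AEG-1 KO (log2 ratio -0.41, edgeR adjusted p = 0.261), lower without overlap in CPM. Col14a1, which lies on chromosome 15 as Mtdh does, had 5, 18 and 14 reads in WT and 15, 29 and 15 in AEG-1 KO (log2 ratio 0.81, edgeR adjusted p = 0.303).

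Col7a1, the anchoring fibril collagen of skin, had 81, 90 and 46 reads in WT and 71, 56 and 82 in AEG-1 KO (log2 ratio 0.09 ± 0.21 SE, edgeR adjusted p = 0.851). The short-chain collagen Col8a1 had 7, 9 and 11 reads in WT and 15, 16 and 12 in AEG-1 KO, and the transmembrane collagen Col23a1 38, 39 and 31 against 23, 27 and 32. Neither passed the test (edgeR adjusted p = 0.177 and 0.542).

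The 19 untested genes had 0 to 11 reads in a library. Col16a1 was the highest of the other class among them, at 3 to 11 reads, and Col10a1, a marker of growth-plate chondrocytes, had 2 to 6. Col17a1, Col8a2, Col25a1, Col28a1, Col26a1 and Col22a1 had 0 to 4. Col13a1 had no read in any library, where 3 counts, the upper limit that a count of 0 allows, correspond to 0.0509 to 0.0705 CPM. These limits cover counting error only.

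Summed by class, the levels followed the same order. The 6 type VI genes summed to 131, 118 and 126 reads in WT and 211, 257 and 257 in AEG-1 KO. In CPM this was 2.62 ± 0.523 against 5.48 ± 0.71 (SD, n = 3), a ratio of 2.09. The fibrillar class went from 17.5 ± 0.963 to 24.9 ± 3.92 CPM, a ratio of 1.42, with the lowest AEG-1 KO library at 21.1 CPM and the highest WT library at 18.4. Of the fibrillar level Col11a2, whose groups overlapped, held 7.8 ± 1.71 CPM in WT and 10.1 ± 2.15 in AEG-1 KO. Basement membrane genes were at 12.2 ± 0.776 and 12.5 ± 0.472 CPM, a difference smaller than the spread between replicates. Of that level Col18a1 alone held 6.95 CPM in WT and 5.92 in AEG-1 KO. The other class was at 11.2 ± 0.738 and 12.9 ± 0.93 CPM, with overlapping libraries. No test was run on these sums.

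**Figure D3:**
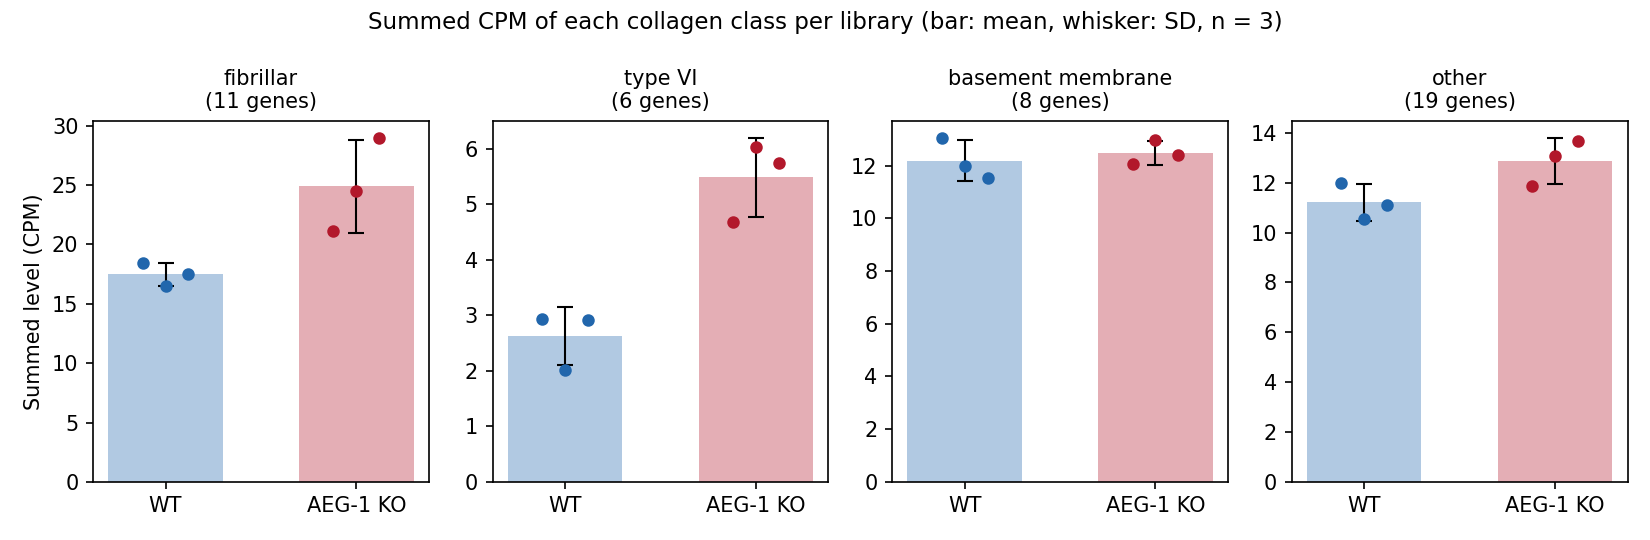
Summed CPM of the genes of each collagen class in each library (points), with the group mean as a bar from 0 and the SD as a whisker (n = 3), for WT in blue and AEG-1 KO in red; each panel has its own vertical scale. The type VI points lie at 2.02 to 2.93 CPM in WT and 4.68 to 6.03 in AEG-1 KO, and the basement membrane points of the genotypes overlap.

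The collagen genes with the highest levels per kb were not among those that rose. Per kb of main transcript the highest WT levels were those of Col11a2 at 1.29 ± 0.283, Col18a1 at 1.24 ± 0.179, Col20a1 at 0.797 ± 0.0859 and Col9a3 at 0.756 ± 0.16 CPM per kb (SD, n = 3). None of these 4 passed the test. Col11a2 and Col18a1 differed by less than their spread, as did Col20a1 and Col9a3. The 7 genes that rose lay at 0.0913 to 0.332 CPM per kb in WT, from Col12a1 to Col5a2. Among members whose groups did not overlap in CPM, 13 of the 25 were higher and 2 lower in AEG-1 KO, where 13.9% and 12.9% of all tested genes were. The 13 include Col8a1 and Col14a1, which were tested only through the AEG-1 KO libraries and so add no support to that count. Tested collagen genes had a median of 66.3 reads per library against 684 over all tested genes. Among the 3357 tested genes with a mean of 20 to 150 reads, 1.49% were called higher and 1.04% lower, and 7 of the 19 collagen genes in that range were called, all higher.

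Some members are neighbours in the genome. Col3a1 and Col5a2, which both rose, lie 24615 bases apart on opposite strands of chromosome 1, and Col6a2 and Col6a1 85162 bases apart on the same strand of chromosome 10. Col4a1 and Col4a2, which overlap at their starts on chromosome 8, did not pass. The nearest protein-coding gene outside the family did not pass the test beside Col1a2 (Casd1, log2 ratio 0.06), Col12a1 (Cox7a2, -0.15), Col6a1 (Pcbp3, -0.60) or Col6a3 (Mlph, -0.28). None of the 7 genes that rose shared a near-identical stretch with a gene other than an overlapping one, in an alignment of their transcripts.

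Genes that build and finish collagen went both ways. Of 35 enzymes and chaperones of collagen assembly 27 were tested, 1 rose, 2 fell and 24 did not pass, with a median log2 ratio of 0.00, where 3.31% of all tested genes were called higher and 3.04% lower. Bmp1, the protease that trims the end of procollagen, fell from 5.99 ± 0.209 to 3.48 ± 0.108 CPM (SD, n = 3; log2 ratio -0.78 ± 0.09 SE, edgeR adjusted p = 0.00115). Lox, which cross-links collagen and elastin, was abundant and fell from 758 ± 53.7 to 590 ± 46.3 CPM (log2 ratio -0.36 ± 0.07 SE, edgeR adjusted p = 0.0152). Its relative Loxl2, far less abundant, had 18, 28 and 20 reads in WT and 32, 47 and 43 in AEG-1 KO and rose (log2 ratio 1.03 ± 0.23 SE, edgeR adjusted p = 0.0315). Serpinh1, the chaperone particular to procollagen, had 35, 30 and 44 reads in WT and 76, 58 and 54 in AEG-1 KO, without passing (log2 ratio 0.92 ± 0.25 SE, edgeR adjusted p = 0.061). The procollagen chaperone Fkbp10 and the cross-linking enzyme Loxl1 had log2 ratios of 1.04 and 1.10 and did not pass (edgeR adjusted p = 0.0741 and 0.1004). For these 3 genes the groups did not overlap, with AEG-1 KO higher. The same held for Fkbp14, Plod2 and P3h1 at log2 ratios of 0.37, 0.36 and 0.17, none of which passed. Of all tested genes 13.9% were higher without overlap. Fkbp10 and Loxl1 passed the filter on low counts only through the AEG-1 KO libraries, so their ratios and lack of overlap add no support.

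Collagen receptors ranged widely in level, from Ddr2 at 0.196 CPM to Cd36 at 1474 CPM in WT among those tested. Of 17 collagen receptors 13 were tested, of which 2 rose and none fell, with a median log2 ratio of 0.17, where 3.31% of all tested genes were called higher. These were Sdc4, a cell surface proteoglycan, from 56.8 ± 1.36 to 79.3 ± 1.005 CPM (SD, n = 3; log2 ratio 0.48, edgeR adjusted p = 0.000374), and Cd44, best known as a hyaluronan receptor, from 352 ± 10.2 to 422 ± 20.6 CPM (log2 ratio 0.26, edgeR adjusted p = 0.0121). Neither is a receptor for collagen alone. Itga11 and Ddr1, which were not called, passed the filter on low counts only through the AEG-1 KO libraries. Their log2 ratios of 0.83 and 0.46 lie above the median of the list, so the filter itself raised that median. Lair1, an inhibitory leukocyte collagen receptor, had 9162 to 12414 reads in WT and 9639 to 10276 in AEG-1 KO and did not pass (edgeR adjusted p = 0.446).

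Of 26 genes of collagen uptake and breakdown 19 were tested, 4 rose and 2 fell, with a median log2 ratio of 0.16, where 3.31% of all tested genes were called higher and 3.04% lower. Mrc1, the mannose receptor that also binds denatured collagen, rose from 80.3 ± 1.92 to 108 ± 4.78 CPM (SD, n = 3; edgeR adjusted p = 0.00117). The collagenase gene Mmp8 and the cathepsin genes Ctss and Ctsb rose with log2 ratios of 0.34, 0.28 and 0.18, respectively (edgeR adjusted p = 0.0157, 0.0084 and 0.0495). Mmp9, a gelatinase, and Prep, a peptidase that cuts after proline, fell, with log2 ratios of -0.42 and -0.25 (edgeR adjusted p = 0.00552 and 0.0104). Mrc2, which was not called, passed the filter on low counts only through the AEG-1 KO libraries. Its log2 ratio of 0.57 lies above the median of the list, so the filter itself raised that median.

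Markers of cells that make collagen were read in the same libraries. Of 25 stromal markers that are not collagens 15 were tested, of which 4 rose, none fell and 11 did not pass, with a median log2 ratio of 0.56, where 3.31% of all tested genes were called higher. Those that rose were Dcn, Bgn, Tagln and Fbn1. Dcn, a proteoglycan that coats collagen fibrils, had 2, 4 and 3 reads in WT and 13, 12 and 12 in AEG-1 KO (log2 ratio 2.14 ± 0.35 SE, edgeR adjusted p = 0.00786). Dcn passed the filter on low counts only through the AEG-1 KO libraries, so its call adds no support to the count. Igfbp5 and Serpinf1, which were not called, passed it in the same way. These and Dcn lie above the median of the list, so the filter itself raised that median. Bgn, its close relative, went from 1.94 ± 0.171 to 3.79 ± 0.689 CPM (SD, n = 3; edgeR adjusted p = 0.00789). The summed level of the list was 19.6 to 27.8 CPM in WT and 27.9 to 32.0 in AEG-1 KO. Much of the WT range came from Sparc, whose WT counts were 117, 111 and 338, and without Sparc the sums were 17.0 to 20.0 and 23.2 to 24.5 CPM. In CPM, WT replicate 3 also had the highest WT level of 6 of the 7 collagen genes that rose, Col6a1 being the exception, and without it all 7 still passed.

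The stromal markers ranged widely in their reads. Acta2 had 179 to 298 reads in WT and 193 to 217 in AEG-1 KO, Pdgfrb had 57 to 97 and 59 to 82, and Postn had 51 to 83 and 76 to 83, and none of these passed. The other 10 markers of the list were too low to be tested. Among them Twist2 had no read in any library, Twist1 had 1 read in all, Pdgfra had 1 to 4 reads in WT and 5 to 10 in AEG-1 KO, and Lum had 8 to 12 and 1 to 4. Of 7 osteoblast markers Runx2 and Alpl were tested and did not pass, and the other 5 had under 10 reads in every library. Their summed level was 5.75 to 6.24 CPM in WT and 6.13 to 6.86 in AEG-1 KO. Of the 5 chondrocyte markers 2 were tested, of the 7 endothelial markers 3 and of the 4 pericyte markers none, and none of those tested passed. In that order the lists summed to 0.895 to 1.11, 3.28 to 3.59 and 0.256 to 0.37 CPM in WT and 1.07 to 1.25, 3.99 to 4.37 and 0.329 to 0.469 CPM in AEG-1 KO. Of 5 megakaryocyte markers Pf4, which macrophages also express, rose (log2 ratio 0.56, edgeR adjusted p = 0.00128). Itga2b, Ppbp and Gp9 had log2 ratios of 0.63, 0.23 and -0.74 and did not pass. The list summed to 63.5 to 73.2 CPM in WT and 97.3 to 104.0 in AEG-1 KO. Of these sums Pf4 alone held 59.6 to 69.7 CPM in WT and 92.9 to 99.7 in AEG-1 KO. The part that these cells have in the collagen values was not tested.

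Of the 7 genes that rose, Col1a2 and Col6a2 passed under each of the 16 alternative settings, with adjusted p of at most 0.0391 and 0.0442. Without AEG-1 KO replicate 2 or without WT replicate 2, 3 of the 7 passed, namely Col1a2, Col6a2 and Col6a3, and without AEG-1 KO replicate 3, 4 passed, Col5a2 being the other. All 7 genes had a positive log2 ratio under each of the 16 settings.

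**Figure D4:**
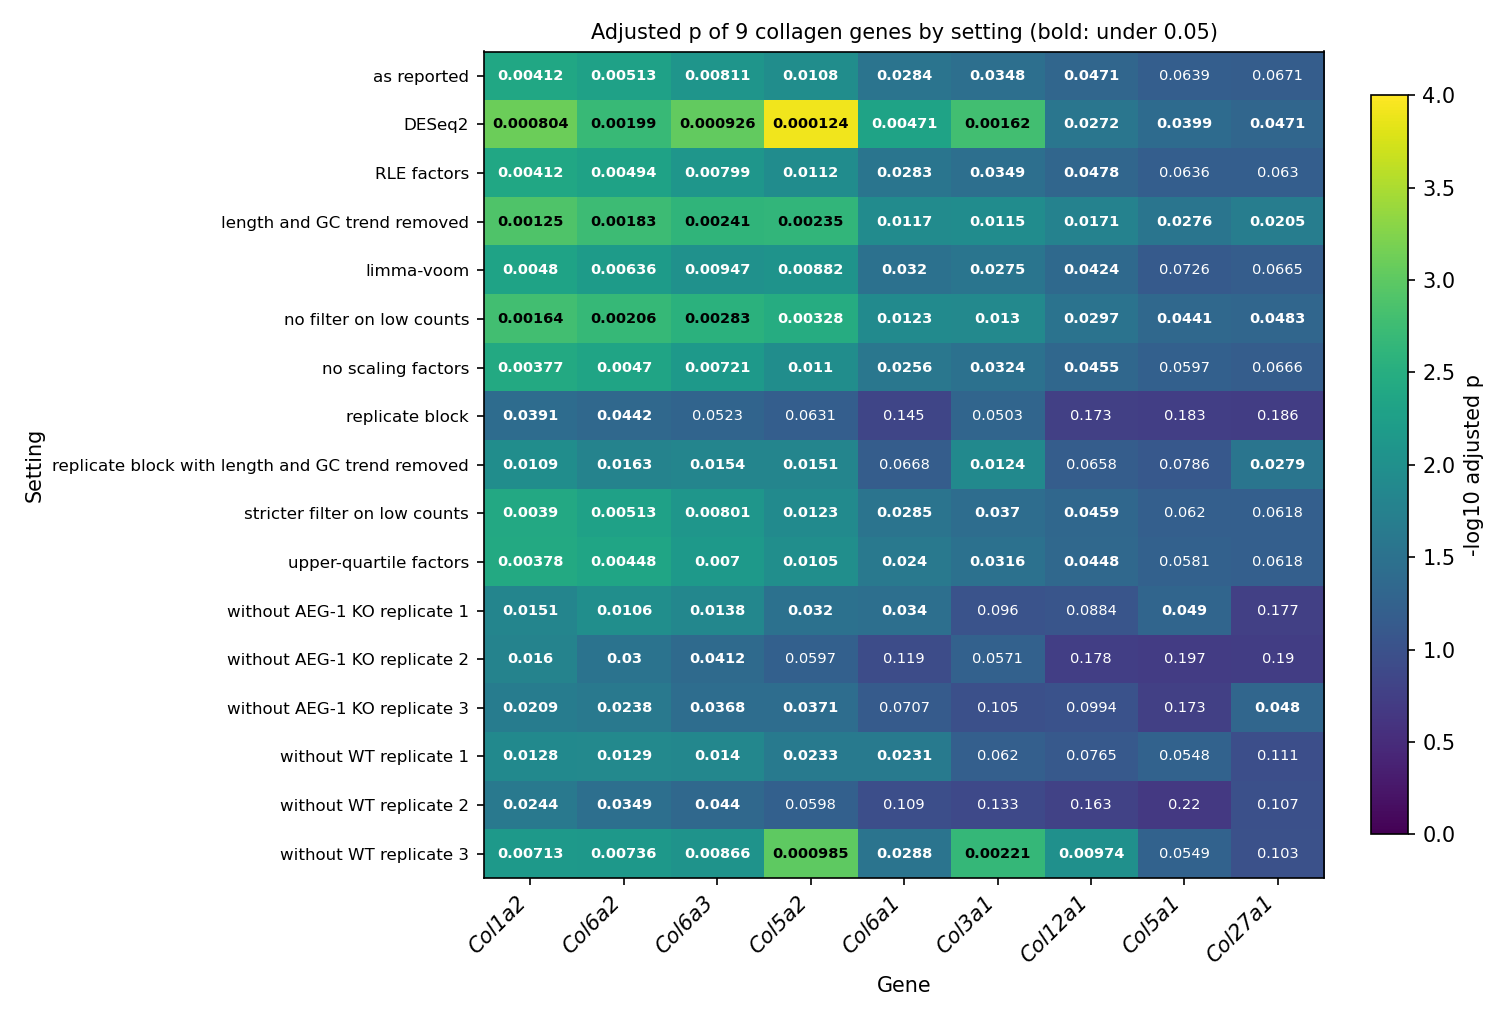
Adjusted p of the 7 collagen genes that rose and of Col5a1 and Col27a1, which were chosen after their values were seen, under the reported fit and 16 alternatives (cells; colour, -log10 of the adjusted p; bold under 0.05). Col1a2 and Col6a2 are bold in every line, and Col12a1 and Col3a1 lose their call in most of the fits that leave out a library.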

How the data were processed

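Total RNA was made into 6 TruSeq libraries and sequenced on a HiSeq3000, per the labels' protocols. The values used are the deposited raw counts, one per Ensembl gene and library. Per the submitters' processing notes, the tools were featureCounts 1.4.6-p4, Subread, cutadapt 1.9, FastQC 0.11.2 and edgeR 3.18.1, and the build was GRCm38 (mm10). The strand setting and the handling of multi-mapping reads are not given in these sources, which leaves genes that overlap others uncertain. Columns were matched to samples by description. Of 46983 identifiers 46488 matched a symbol in GENCODE M21, and 495 did not.

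The fit used edgeR 4.0.16 in R 4.3.3 (filterByExpr at a minimum count of 10, TMM factors, glmQLFit with legacy false, genotype as the sole term), with Benjamini-Hochberg adjustment over all 16115 tested genes, checked on simulated data. The SE of a log2 ratio is its size divided by the root of F. Replicates of a genotype differed beyond sampling noise (chi-square per degree of freedom 5.57 to 19.19). Near-identical copies were sought with BLAST+ 2.17.0 (95% identity over 100 nucleotides). Alternatives were other scalings and filters, DESeq2 1.42.0, limma-voom 3.58.1, a replicate block, removal of a length and GC trend (mgcv 1.9.3) and leaving out each library. Full statistics were given for every called collagen gene and the 3 most counted uncalled genes of each class; up to 5 called genes of each list were named. Other names were chosen after values were seen. The members and lists were chosen with earlier results of these data known.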

Additional observations from a re-analysis of the deposited data

How the results depend on the processing

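Over the 25 tested collagen genes, 347 of 385 values under alternative settings kept their direction and side of the threshold, 22 lost a call, 11 gained one and 5, all of uncalled genes, changed sign. The count of collagen genes called (7, all higher) was 2 with the replicate block and 3 to 7 without 1 library, and those called higher were 2 and 3 to 7. Those called lower (0) were 1 with DESeq2, 2 with the length and GC trend removed, 1 with no filter on low counts, 1 with the replicate block and the length and GC trend removed, and 0 to 1 without 1 library. Over all genes the calls (1023) were 2483 with the length and GC trend removed, 227 with the replicate block and 380 to 1092 without 1 library. Of the assembly genes (3) 6 were called with the trend removed, 1 with the replicate block and 1 to 3 without 1 library. Receptors (2) were 1 and 1 to 2, breakdown genes (6) 1 and 2 to 6, and stromal markers (4) 1 and 2 to 5 under the replicate block and without 1 library; stromal markers were 2 with DESeq2. The cause of these moves was not tested. Without 1 library the log2 ratios ranged from -0.15 to 0.18 for Col4a5, from -0.34 to 0.24 for Col4a4 and from -0.079 to 0.23 for Col7a1. Same-numbered libraries of the genotypes did not deviate in the same direction (r of their deviations from the group means -0.274, -0.173 and -0.251, other pairs 0.057 to 0.194). Deviations sum to 0 within a genotype, so these values depend on each other and cannot decide whether the numbers pair the samples. Depth limits the family: 19 of 44 genes were too low to be tested.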

Other observations

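Proteins with a collagen-like domain that are not collagens make up a second set of genes with triple-helical stretches, and macrophages use several of them in host defence. The list of 30 was drawn up after values of some members were known. Of these 10 were tested, 1 rose, 1 fell and 8 did not pass, with a median log2 ratio of 0.24. Of all tested genes 3.31% were called higher and 3.04% lower. Marco, a scavenger receptor, fell from 3477 ± 179 to 2257 ± 45.4 CPM (SD, n = 3; log2 ratio -0.62, edgeR adjusted p = 0.000149). Colec12, a scavenger receptor with a lectin domain, rose from 11.8 ± 0.381 to 14.1 ± 0.457 CPM (log2 ratio 0.26, edgeR adjusted p = 0.048). The complement genes C1qa, C1qb and C1qc had log2 ratios of 0.13, 0.24 and 0.26 and did not pass (edgeR adjusted p = 0.302, 0.0644 and 0.328). The summed level of the 30 genes was 5260 to 5906 CPM in WT and 4674 to 5010 CPM in AEG-1 KO, where the 44 collagen genes summed to 41.0 to 46.4 and 49.7 to 60.8 CPM. Marco, which fell, held much of the sum of the 30. The next most abundant, C1qb, C1qc and Msr1, had means of 924, 625 and 403 CPM in WT. In AEG-1 KO these were higher, at 1090, 748 and 462 CPM, without passing the test.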
